A study of Mus musculus with 6 samples.

Results

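The 44 genes described here code for the kinetochore and for the checkpoint that reads it. They were chosen by function, by symbol, among the genes that the authors marked as kept, and all 44 were found and tested, of 39253 genes in the count table, 16911 kept and 16632 tested. They fall into 5 groups by role: 14 of the centromere and inner kinetochore, 12 of the outer kinetochore and corona, 6 of the spindle checkpoint, 5 of the chromosomal passenger complex with its kinases, and 7 mitotic kinases and anaphase regulators.

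RNA came from whole testes of 3 Tardbp cKO mice and 3 WT mice at postnatal day 12 on the C57BL/6 strain, with 1 library per mouse. In the cKO mice exon 3 of Tardbp, the gene of the RNA-binding protein TDP-43, is floxed and removed by an iCre driven from the Stra8 promoter, which acts in spermatogonia and their descendants. The study's methods describe cKO males as Tardbp Flox/null, Stra8-Cre+. Somatic cells of such a testis would also carry the null allele, with 1 copy left. The WT mice are labelled wild type, and whether they carried the transgene or the floxed allele is not given in the sources used here.

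By the labels, batch 2 holds cKO 1 together with all WT libraries, and batch 1 the other cKO libraries, cKO 2 and cKO 3. Library totals were 31713911 to 43371284 estimated counts in the cKO and 30028685 to 33099581 in WT. Tardbp was at 6.81 to 8.0 log2 CPM (counts scaled to the library total on a log2 scale, after TMM normalization) in the cKO libraries and at 8.29 to 8.38 in the WT libraries, and cKO 1, at 8.0, was the cKO library nearest to WT. Because no WT library was in batch 1, a model with a batch term compares genotypes within batch 2, that is, cKO 1 with 3 WT mice. Each cKO library is therefore given by itself, in the order cKO 1, cKO 2 and cKO 3, followed by WT 1, WT 2 and WT 3.

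The kinetochore is built on centromeric nucleosomes that hold the histone variant CENP-A. The constitutive centromere-associated network, whose subunits are the CENP proteins, sits on this chromatin, and the Mis12, Ndc80 and Knl1 complexes of the outer layer attach to it and grip microtubules. Kinetochores without microtubules keep the spindle checkpoint active, which holds back Cdc20 and the anaphase-promoting complex until all chromosomes are attached. In the testis these genes serve the mitoses of spermatogonia and, with germ cell variants of some parts, the meiotic divisions. At postnatal day 12 the first wave of spermatocytes is in prophase of meiosis and has not yet divided.

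Many genes used in G2 and mitosis are known to carry a CHR element, often beside CCAAT boxes, close to their start sites, and DREAM and B-Myb complexes act through the CHR. Promoters of 40 of the 44 members, 45 promoters in all, were found by symbol in a RefSeq table on GRCm38.p6, each with 250 bases before and 50 after the start. A CHR (TTTGAA or TTCGAA, on either strand) was in 21 of the 45, or 46.7%, against 14.3% of the promoters of all genes tested and 19.2% of all promoters in the table. CCAAT was in 71.1% of the members' promoters, against 37.6% for genes tested and 37.4% for all, and both elements were in 40.0%, against 5.88% and 7.52%. Both elements lay within the 80 bases before the start in 5 members, and these stretches are shown to let the spacing of the elements be read, 5′ to 3′ and ending at the base before the start, with CHR and CCAAT matches in capitals on whichever strand they lie.
Bub3 (GRCm38.p6, chr7:131560290-131560369, plus strand): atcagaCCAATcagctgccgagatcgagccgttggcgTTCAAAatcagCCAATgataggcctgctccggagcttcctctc
Cdc20 (GRCm38.p6, chr4:118437344-118437423, minus strand): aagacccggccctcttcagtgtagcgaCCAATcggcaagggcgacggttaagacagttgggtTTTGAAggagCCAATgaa
Cenpn (GRCm38.p6, chr8:116921660-116921739, plus strand): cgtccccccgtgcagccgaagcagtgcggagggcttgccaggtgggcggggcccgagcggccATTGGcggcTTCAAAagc
Cenpw (GRCm38.p6, chr10:30200541-30200620, minus strand): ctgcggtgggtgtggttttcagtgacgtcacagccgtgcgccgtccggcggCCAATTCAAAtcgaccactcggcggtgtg
Espl1 (GRCm38.p6, chr15:102296213-102296292, plus strand): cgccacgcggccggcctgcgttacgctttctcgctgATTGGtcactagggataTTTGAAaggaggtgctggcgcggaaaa
In Cenpw the CCAAT and the CHR (TTTGAA on the other strand, shown here as TTCAAA) share 1 base and form 1 run of capitals. These 5 genes include members that were lower in every cKO library by over 1.5 times (Cenpn, Cenpw) and one whose levels overlapped between genotypes (Bub3). Members that passed the test below had a CHR in 46.2% and CCAAT in 73.1% of 26 promoters, and those that did not pass had them in 47.4% and 68.4% of 19 promoters. The matches describe the letters in these windows and do not show that a factor binds there.

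Kinetochore and checkpoint genes were lower in the cKO testes, in all 5 groups. In the test of genotype (edgeR's quasi-likelihood test with a batch term, p values adjusted over the 16632 genes by Benjamini-Hochberg) 25 of the 44 members were lower in cKO, 0 were higher and 19 did not pass at 0.05. Of all genes tested, 9.24% were called lower and 6.91% higher. Aurkc is among the 25, but it met the filter of 0.5 CPM in 3 libraries only through the WT libraries. Its call is therefore no support. At an unadjusted p under 0.05, 34 members were lower and 0 higher, against 18.8% of all genes lower and 16.5% higher. DESeq2 called 31 members lower and 0 higher, against 13.3% and 9.93% of all genes. The median log2 fold change of the members was -0.66, against 0.0061 over all genes tested. Without the batch term, with all 3 cKO libraries against all 3 WT libraries, 35 members were lower and 0 higher, with a median of -1.11, against 16.7% of all genes lower and 17.1% higher. In whole testis, fewer cells of a type and less RNA per cell cannot be told apart.

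The decrease was present in each cKO mouse and differed in size between them. The median difference of the members from the WT mean was -0.66 in cKO 1, -1.32 in cKO 2 and -1.58 in cKO 3, and over all genes tested it was 0.013, 0.0046 and 0.039. In 38 of the 44 members all 3 cKO libraries lay below all 3 WT libraries, which was so for 27.1% of all genes tested. The 38 include Aurkc, which was admitted only through the WT libraries. The 6 members whose groups overlapped were Cenpm, Cenpt, Zwint, Bub3, Mad1l1 and Aurkb. cKO 3 was the lowest library in 38 members, and the share of all genes for which this held was not counted.

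**Figure D1:**
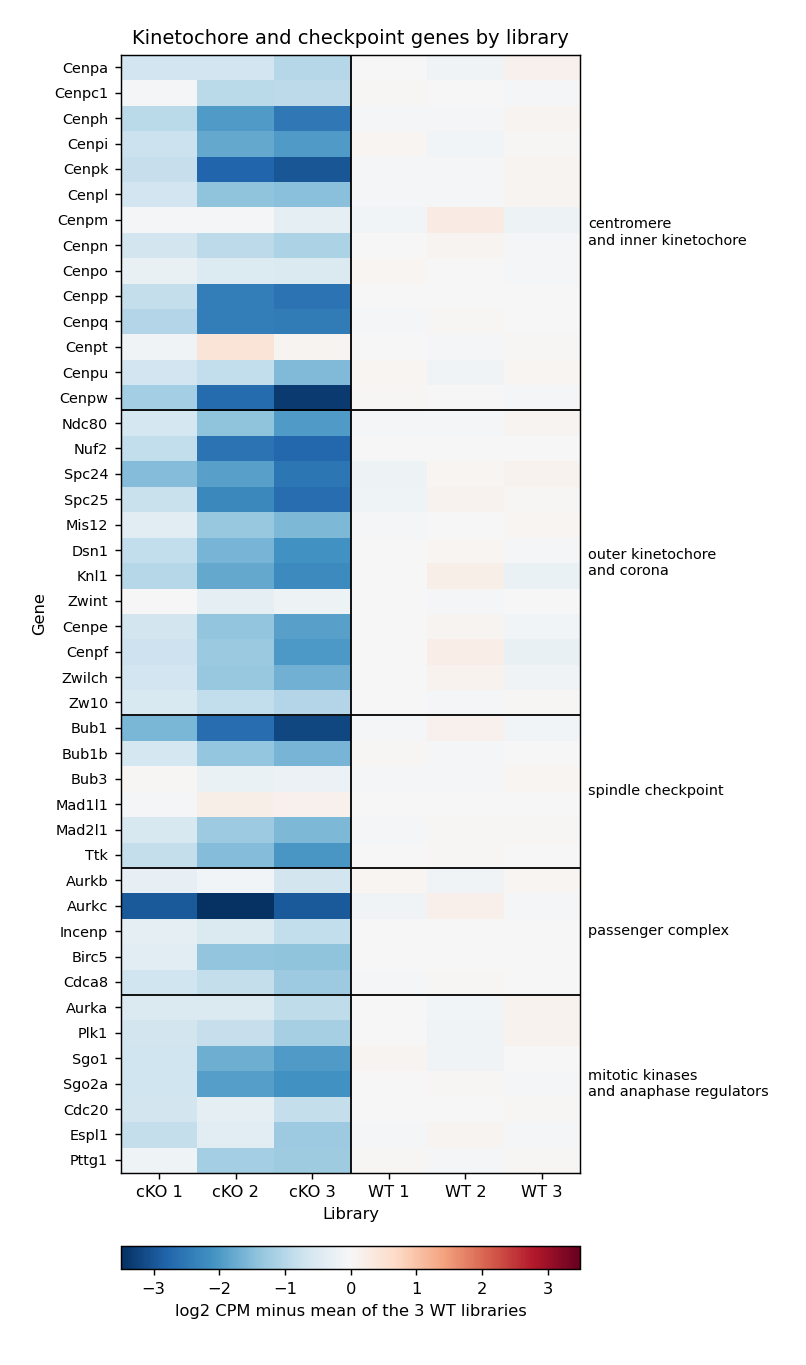
Log2 CPM of each of the 44 genes (rows, by role group) in each library (columns, cKO then WT), minus the mean of the 3 WT libraries; blue is below and red above that mean. The cKO columns are blue in nearly all rows and darkest in cKO 3, with Cenpm, Cenpt, Zwint, Bub3 and Mad1l1 near white or red in some of the cKO columns.

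Genes of the centromere and inner kinetochore were lower in 8 of 14 cases, against 9.24% of all genes tested, with 0 higher. Their median log2 fold change was -0.67. Their median differences from WT were -0.67 in cKO 1, -1.18 in cKO 2 and -1.50 in cKO 3. Cenpa, the histone H3 variant that marks the centromere, was at 4.53, 4.54 and 4.21 log2 CPM in the cKO libraries, against 5.18, 5.07 and 5.35 log2 CPM in the WT libraries. All cKO libraries lay below WT, by similar amounts in cKO 1 and cKO 2 (log2 fold change -0.67, SE 0.17, adjusted p = 0.0431). Cenpc1, which binds CENP-A nucleosomes and links them to the outer layer, was at 5.80, 4.92 and 4.94 in the cKO libraries, against 5.91, 5.86 and 5.80 in the WT libraries. It was thus close to WT in cKO 1 and lower in cKO 2 and cKO 3, and it did not pass (adjusted p = 0.696; without the batch term 0.0957).

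The subunits of the CENP-H/I/K/M part of the network differed among themselves. Cenph was at 3.75, 2.70 and 2.19 log2 CPM in the cKO libraries, against 4.64, 4.64 and 4.78 log2 CPM in the WT libraries (log2 fold change -0.95, SE 0.22, adjusted p = 0.033). Cenpi, an X-linked gene, was at 4.05, 3.02 and 2.82 in the cKO libraries, against 4.86, 4.72 and 4.83 in the WT libraries (log2 fold change -0.76, SE 0.15, adjusted p = 0.0245). Cenpk was at 3.69, 1.72 and 1.51 in the cKO libraries, against 4.45, 4.45 and 4.61 in the WT libraries (log2 fold change -0.82, SE 0.17, adjusted p = 0.0275). In these 3 genes cKO 2 and cKO 3 stood at least 1 log2 unit below cKO 1, and Cenpk in cKO 3 was 7.97-fold below the WT mean. Cenpm, the fourth subunit, was at 3.11, 3.14 and 2.84 in the cKO libraries, against 3.08, 3.45 and 2.98 in the WT libraries, so the groups overlapped (adjusted p = 0.857).

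CENP-L and CENP-N bind to each other and contact the CENP-A nucleosome. Cenpn was at 4.11, 3.86 and 3.64 log2 CPM in the cKO libraries, against 4.75, 4.86 and 4.68 log2 CPM in the WT libraries. All cKO libraries lay below WT, and the level fell from cKO 1 to cKO 3 (log2 fold change -0.66, SE 0.15, adjusted p = 0.034). Cenpl was at 3.11, 2.36 and 2.31 in the cKO libraries, against 3.71, 3.73 and 3.87 in the WT libraries; its adjusted p was 0.0525 with the batch term and 0.0174 without it.

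In the CENP-O/P/Q/U part of the network, Cenpp and Cenpq had the largest differences. Cenpq was at 4.31, 2.93 and 2.91 log2 CPM in the cKO libraries, against 5.27, 5.40 and 5.37 log2 CPM in the WT libraries (log2 fold change -1.04, SE 0.13, adjusted p = 0.014, the smallest adjusted p among the members). Cenpp was at 3.21, 1.63 and 1.48 in the cKO libraries, against 4.06, 4.05 and 4.05 in the WT libraries (log2 fold change -0.85, SE 0.18, adjusted p = 0.0276). For both, cKO 2 and cKO 3 were close to each other and over 5-fold below WT. Cenpo and Cenpu lay below WT in every cKO library but did not pass (adjusted p = 0.201 and 0.139), and the levels of Cenpo were 4.16, 3.97 and 3.94 log2 CPM in the cKO libraries, against 4.51, 4.42 and 4.37 in the WT libraries.

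Cenpt and Cenpw, histone-fold proteins that bind each other and make up a DNA-bound route to the Ndc80 complex, differed in pattern. Cenpw was at 3.06, 1.56 and 0.92 log2 CPM in the cKO libraries, against 4.29, 4.27 and 4.19 log2 CPM in the WT libraries, which is 2.29-fold below the WT mean in cKO 1 and 10.1-fold below it in cKO 3 (log2 fold change -1.20, SE 0.26, adjusted p = 0.0279). Cenpt was at 4.57, 5.13 and 4.79 in the cKO libraries, against 4.70, 4.65 and 4.71 in the WT libraries, with 1 cKO library below and 2 above the WT mean (adjusted p = 0.608). Cenpw lies at chr10:29991517-30076563 and Cenpt at chr8:106570623-106579910 (GRCm39, minus strand for both).

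The outer kinetochore and corona had 7 of 12 genes lower, against 9.24% of all genes tested, and 0 higher. The median log2 fold change was -0.70, with median differences of -0.69, -1.40 and -1.99 in cKO 1, cKO 2 and cKO 3. The Ndc80 complex, the main microtubule grip, holds Ndc80, Nuf2, Spc24 and Spc25. Nuf2 was at 5.10, 3.38 and 3.21 log2 CPM in the cKO libraries, against 5.96, 5.94 and 5.96 log2 CPM in the WT libraries (log2 fold change -0.85, SE 0.12, adjusted p = 0.0146). The WT libraries of Nuf2 differed by less than 0.05 log2 units, and cKO 3 was 6.70-fold below their mean. Spc24 was at 3.05, 2.66 and 2.06 in the cKO libraries, against 4.39, 4.63 and 4.70 in the WT libraries (log2 fold change -1.53, SE 0.27, adjusted p = 0.0198), and Spc25 was at 4.89, 3.43 and 3.0 in the cKO libraries, against 5.51, 5.79 and 5.70 in the WT libraries (log2 fold change -0.79, SE 0.19, adjusted p = 0.0359). Spc24 had the largest difference of the complex in cKO 1, and Nuf2 and Spc25 the larger ones in cKO 2 and cKO 3. Ndc80 itself was at 5.09, 4.30 and 3.74 in the cKO libraries, against 5.66, 5.68 and 5.81 in the WT libraries; all cKO libraries were below WT, with an adjusted p of 0.0765 with the batch term and 0.0246 without it.

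Dsn1, which ties the Mis12 complex to the inner kinetochore, was at 4.83, 4.06 and 3.56 log2 CPM in the cKO libraries, against 5.68, 5.74 and 5.63 log2 CPM in the WT libraries (log2 fold change -0.85, SE 0.19, adjusted p = 0.0302). Mis12, its partner, was at 5.78, 4.86 and 4.59 in the cKO libraries, against 6.11, 6.18 and 6.24 in the WT libraries and did not pass (adjusted p = 0.0749; without the batch term 0.0343). Knl1, the scaffold on which the Bub proteins assemble, was at 5.10, 4.30 and 3.88 in the cKO libraries, against 6.13, 6.31 and 5.88 in the WT libraries (log2 fold change -1.02, SE 0.22, adjusted p = 0.0279), with all cKO libraries below a rather wide WT range. Zwint, a partner of Knl1, was the exception of this group. It was at 7.40, 7.10 and 7.21 in the cKO libraries, against 7.43, 7.36 and 7.42 in the WT libraries, so cKO 1 lay within the WT range and cKO 2 and cKO 3 a little below it (adjusted p = 0.991).

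In the corona, the fibrous outer coat, Zw10 and Zwilch belong to the complex that recruits dynein and the Mad proteins. Zwilch was at 4.98, 4.31 and 3.96 log2 CPM in the cKO libraries, against 5.65, 5.75 and 5.53 log2 CPM in the WT libraries (log2 fold change -0.66, SE 0.17, adjusted p = 0.0399). Zw10 was at 5.29, 4.95 and 4.80 in the cKO libraries, against 5.83, 5.76 and 5.85 in the WT libraries (log2 fold change -0.52, SE 0.11, adjusted p = 0.0279), the smallest decrease of this group that passed. Cenpe, a kinesin that carries chromosomes to the spindle equator, was at 6.27, 5.52 and 5.0 in the cKO libraries, against 6.90, 7.01 and 6.82 in the WT libraries. Cenpf, a large coiled-coil protein of the corona, was at 7.53, 6.95 and 6.24 in the cKO libraries, against 8.27, 8.50 and 7.99 in the WT libraries. Neither passed with the batch term (adjusted p = 0.062 for Cenpe and 0.116 for Cenpf), and both did without it (0.0219 and 0.0227).

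Among the 6 spindle checkpoint genes 4 were lower, against 9.24% of all genes tested, and 0 higher. The median log2 fold change was -0.60, with median differences of -0.60, -1.31 and -1.61 in cKO 1, cKO 2 and cKO 3. Bub1, the kinase that marks centromeric histone H2A and brings in shugoshin, lies at chr2:127643036-127673806 on the minus strand (GRCm39). It was at 5.89, 4.84 and 4.31 log2 CPM in the cKO libraries, against 7.42, 7.65 and 7.41 log2 CPM in the WT libraries, which is 3.03-fold below the WT mean in cKO 1 and 9.10-fold below it in cKO 3 (log2 fold change -1.61, SE 0.22, adjusted p = 0.0145). Bub1b, its pseudokinase relative that inhibits Cdc20, was at 6.05, 5.32 and 5.03 in the cKO libraries, against 6.70, 6.62 and 6.68 in the WT libraries (log2 fold change -0.62, SE 0.13, adjusted p = 0.0264). Mad2l1, the protein that changes shape to bind Cdc20, was at 5.42, 4.71 and 4.40 in the cKO libraries, against 5.91, 6.03 and 6.03 in the WT libraries (log2 fold change -0.57, SE 0.14, adjusted p = 0.0387). Ttk, the kinase at the head of the checkpoint, was at 4.83, 4.16 and 3.62 in the cKO libraries, against 5.63, 5.70 and 5.65 in the WT libraries (log2 fold change -0.83, SE 0.20, adjusted p = 0.0348). In all 4 the order was cKO 1, cKO 2, cKO 3 downwards, and no cKO library reached WT.

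The groups overlapped in the other 2 checkpoint genes. Bub3, which holds both Bub1 and Bub1b at the kinetochore, was at 6.33, 6.06 and 6.08 log2 CPM in the cKO libraries, against 6.26, 6.24 and 6.37 log2 CPM in the WT libraries, so cKO 1 lay inside the WT range and cKO 2 and cKO 3 below it (adjusted p = 0.777). Mad1l1, the anchor of Mad2l1, was at 5.0, 5.24 and 5.19 in the cKO libraries, against 5.03, 5.05 and 5.05 in the WT libraries, with cKO 1 below and cKO 2 and cKO 3 above all WT libraries (adjusted p = 0.795). Without the batch term neither passed (adjusted p = 0.431 for Bub3 and 0.512 for Mad1l1).

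The passenger complex places an Aurora kinase at the centromere to correct wrong attachments. Of its 5 genes 3 were lower, Aurkc among them, against 9.24% of all genes tested, and 0 were higher. The median log2 fold change was -0.41, with median differences of -0.41, -0.82 and -1.27. Aurkc, the form used in germ cells at meiosis, was at -1.58, -2.10 and -1.59 log2 CPM in the cKO libraries, against 1.23, 1.54 and 1.32 log2 CPM in the WT libraries. These levels come from 8.9, 5.7 and 11.0 estimated counts in the cKO libraries, against 78.0, 92.0 and 74.2 in the WT libraries. All cKO libraries were thus under 0.5 CPM, and Aurkc met the filter of 0.5 CPM in 3 libraries only through the WT libraries. Admitted in this way, it could only be seen as lower in cKO, so its call is no support for the decrease. Aurkc had the largest fold change of the 44 genes (log2 fold change -3.17, SE 0.47, adjusted p = 0.0152), and the cKO libraries lay close together beside it. The gene lies at chr7:6998299-7006097 on the plus strand (GRCm39).

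Aurkb, the mitotic form of the kinase, was at 4.48, 4.67 and 4.13 log2 CPM in the cKO libraries, against 4.83, 4.65 and 4.83 log2 CPM in the WT libraries, with cKO 2 inside the WT range (adjusted p = 0.352; without the batch term 0.152). Aurkb and Aurkc are close paralogs, and the authors' estimated counts divide multimapped reads between genes, so their separation is uncertain. Birc5 (survivin), the centromere-binding subunit, was at 4.83, 3.86 and 3.83 in the cKO libraries, against 5.25, 5.22 and 5.26 in the WT libraries (log2 fold change -0.41, SE 0.11, adjusted p = 0.0471), a call that was lost with limma-trend (adjusted p = 0.0503), with scaling to library size alone (0.0501) and with no low-count filter (0.088). Cdca8 (borealin), its partner, was at 5.25, 5.13 and 4.69 in the cKO libraries, against 5.90, 6.0 and 5.97 in the WT libraries (log2 fold change -0.71, SE 0.17, adjusted p = 0.0372). The WT libraries of Birc5 lay close together, and the distance to WT was over 3 times as large in cKO 2 and cKO 3 as in cKO 1. Incenp, the scaffold of the complex, was at 6.40, 6.21 and 5.84 in the cKO libraries, against 6.70, 6.73 and 6.68 in the WT libraries and did not pass with the batch term (adjusted p = 0.174; without it 0.0356).

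**Figure D2:**
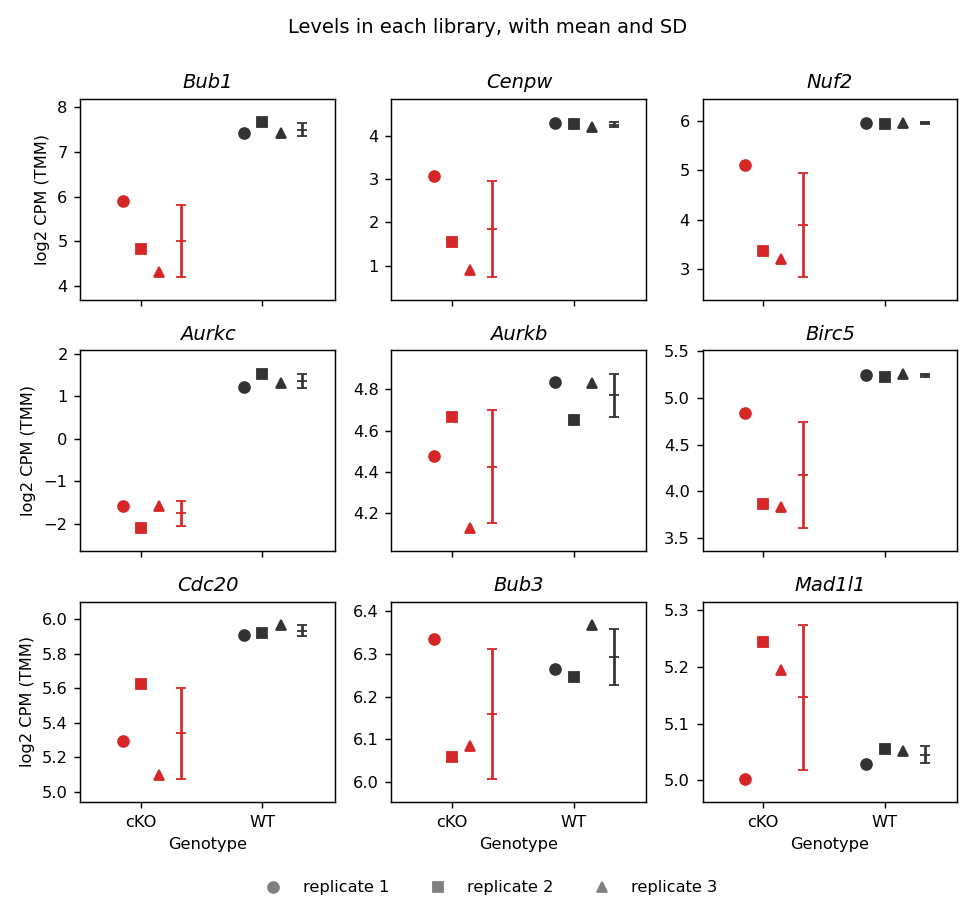
Log2 CPM of 9 members in each library is shown as points, with cKO red and left and WT black and right. Bars give the mean and SD of 3 libraries. Replicate numbers are not known to pair mice, and each panel has its own scale. Bub1, Cenpw, Nuf2 and Aurkc have cKO points far below the WT points, Birc5 and Cdc20 are separated by less, and in Aurkb, Bub3 and Mad1l1 the cKO points reach into the WT range or lie on either side of it.

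Of the 7 mitotic kinases and anaphase regulators 3 were lower, against 9.24% of all genes tested, and 0 higher. Their median log2 fold change was -0.65, with median differences of -0.64, -0.81 and -1.25. In all 7 the cKO libraries lay below the WT libraries, which was so for 27.1% of all genes tested. Sgo1, shugoshin of the mitotic centromere, was at 4.09, 3.07 and 2.81 log2 CPM in the cKO libraries, against 4.89, 4.67 and 4.81 log2 CPM in the WT libraries (log2 fold change -0.71, SE 0.17, adjusted p = 0.035). Sgo2a, the shugoshin that protects centromeric cohesin in meiosis, was at 5.25, 4.01 and 3.82 in the cKO libraries, against 5.94, 5.99 and 5.89 in the WT libraries (log2 fold change -0.69, SE 0.12, adjusted p = 0.0192). These guardians of cohesin showed larger differences in cKO 2 and cKO 3 than in cKO 1, as Bub1 did. Sgo2a has a close copy in the mouse genome, Sgo2b, so reads shared between them make its level uncertain. Plk1, a kinase of mitotic entry and of attachment, was at 4.84, 4.67 and 4.33 in the cKO libraries, against 5.50, 5.35 and 5.61 in the WT libraries (log2 fold change -0.65, SE 0.17, adjusted p = 0.0448), and lost its call with scaling to library size alone (adjusted p = 0.0511). Aurka, the kinase of the spindle poles, was at 4.40, 4.41 and 4.03 in the cKO libraries, against 4.89, 4.82 and 5.03 in the WT libraries and did not pass with the batch term (adjusted p = 0.0883; without it 0.0228).

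The 3 genes that act at the start of anaphase did not pass with the batch term and differed in pattern. Cdc20, the activator of the anaphase-promoting complex that the checkpoint holds back, was at 5.30, 5.62 and 5.10 log2 CPM in the cKO libraries, against 5.91, 5.92 and 5.97 log2 CPM in the WT libraries (adjusted p = 0.0621; without the batch term 0.028). Espl1 (separase), the protease that opens cohesin, was at 5.80, 6.23 and 5.37 in the cKO libraries, against 6.58, 6.72 and 6.61 in the WT libraries (adjusted p = 0.0882; without the batch term 0.028). In both genes cKO 2 was the cKO library nearest to WT. Pttg1 (securin), the inhibitor of separase, was at 4.94, 3.90 and 3.83 in the cKO libraries, against 5.11, 5.01 and 5.12 in the WT libraries (adjusted p = 0.419; without the batch term 0.0768). Its level in cKO 1 was just below the WT range, while cKO 2 and cKO 3 were more than 1 log2 unit below it.

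The call of the 25 genes rested on small groups. Leaving out WT 2 left 0 of them past the threshold (smallest adjusted p among the members 0.0531; 12 of all 16632 genes called), leaving out WT 1 left 6 and leaving out WT 3 left 4. Of all genes, 0.0301% were then called lower without WT 2, 3.17% without WT 1 and 1.31% without WT 3. The unadjusted p of each of the 25 stayed under 0.05 in these 3 fits. The 25 were picked for small p in the full fit, which shares cKO 1 and most other libraries with these fits. This is therefore no separate support. Without the batch term, leaving out cKO 2 gave 13 members lower, 10 of them among the 25, against 7.8% of all genes, and leaving out cKO 3 gave 19, 16 of them among the 25, against 6.42%.

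The distance between cKO 1 and the other cKO mice was not the same for all members. The level was lower in cKO 2 and cKO 3 than in cKO 1 in 26 members and higher in 0 at an adjusted p under 0.05 (the batch coefficient of the same edgeR fit), against 16.2% lower of all genes tested. By group these were 8 of 14 centromere genes, 10 of 12 outer kinetochore genes, 4 of 6 checkpoint genes, 1 of 5 passenger genes and 3 of 7 kinases and anaphase regulators. The order cKO 1, cKO 2, cKO 3 downwards held in 32 members, and in 8 members cKO 2 was at or above cKO 1. The share of all genes with either order was not counted, so these counts only describe the members. These differences lie between mice of 1 genotype that also differ in batch, so mouse and batch cannot be told apart.

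**Figure D3:**
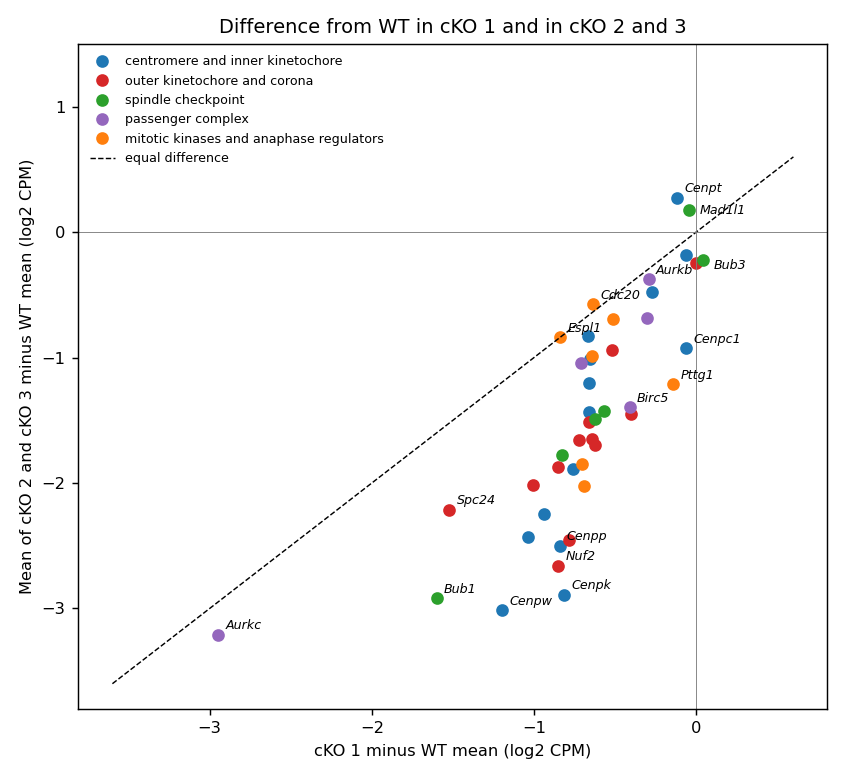
Each point is 1 of the 44 genes, coloured by role group: its difference from the WT mean in cKO 1 (horizontal) and in the mean of cKO 2 and cKO 3 (vertical), in log2 CPM, with a dashed line where these would be equal. Most points lie below the line, Cenpk, Cenpp, Nuf2 and Cenpw far below it, while Cdc20, Espl1 and Aurkc lie near it and Cenpt and Mad1l1 above it.

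The base composition of the transcripts moved with this distance. GC content came from 1 transcript per gene in GENCODE vM39 and was known for all 44 members (36.3% to 56.8%) and for 94.02% of the genes tested. Across the 44 members, GC content and the difference of the mean of cKO 2 and cKO 3 from cKO 1 had a Pearson r of 0.77 and a Spearman rho of 0.77, and across 15637 genes tested r was 0.47 and rho 0.55. For the difference of cKO 1 from WT the values were 0.21 and 0.42 over the members and 0.09 and 0.09 over all genes. Genes share their libraries, so these are descriptions, and transcript length had r -0.0061 and rho -0.08 with the distance over the members.

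The 22 members below the members' median GC content had median differences from WT of -0.71, -1.61 and -2.0 in cKO 1, cKO 2 and cKO 3. Other tested genes in that range of GC content (4582 genes) had medians of -0.05, -0.57 and -0.46. The 22 members above it had -0.57, -0.74 and -1.07, and the 8481 other genes in their range had 0.01, 0.13 and 0.17. Low-GC members such as Cenpw, Cenpq, Sgo2a and Bub1 thus stood beside genes whose median was below WT in cKO 2 and cKO 3, and high-GC members such as Cdc20, Espl1, Cenpt and Mad1l1 beside genes whose median was above it.

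After the trend of all genes with GC content (a lowess curve per library) was removed, the members' median differences were -0.66, -0.95 and -1.45 in cKO 1, cKO 2 and cKO 3. The group medians in cKO 3 were then -1.17 for the centromere, -1.53 for the outer kinetochore, -1.33 for the checkpoint, -1.52 for the passenger complex and -1.45 for kinases and anaphase regulators. With the same trend as an offset in the edgeR fit, an alternative chosen after the data were seen, 19 members were lower with the batch term, all 19 among the 25, and 36 without it. This fit held the 15637 genes with a GC content, of which 9.24% were lower with the batch term and 20.3% without it. The calls of Cenpa, Spc25, Zwilch, Mad2l1, Ttk and Sgo1 were lost with the batch term (adjusted p = 0.0525 to 0.0735), while their log2 fold changes moved little, to -0.66, -0.74, -0.62, -0.53, -0.78 and -0.67.

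**Figure D4:**
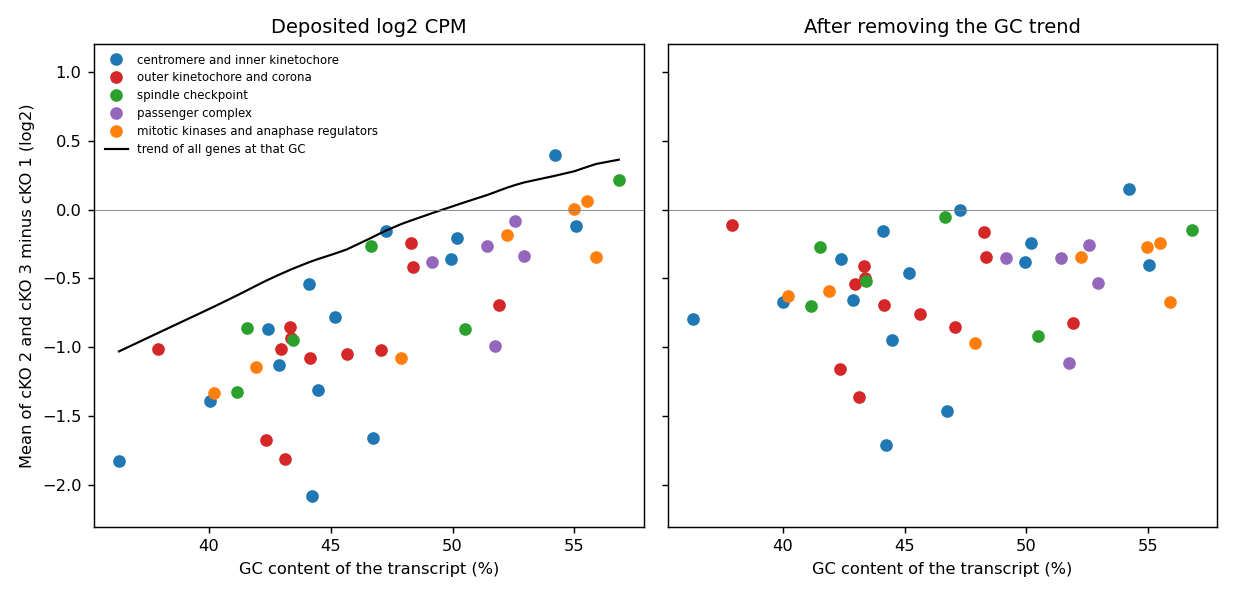
Mean of cKO 2 and cKO 3 minus cKO 1 in log2 CPM (vertical) against GC content of the transcript in percent (horizontal) for the 44 genes, coloured by role group, as deposited (left, with the trend of all tested genes as a black line) and with that trend removed (right). On the left the points run upward with GC content and most lie below the line, and on the right the slope is mostly gone while most points stay below 0.

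The other genes of the pathway were taken from lists of known parts. Of 27 other kinetochore genes 10 were lower and 1 higher, against 9.24% and 6.91% of all genes tested. Their median log2 fold change was -0.64. Among the lower ones were Mis18a, Oip5, Hjurp, Pmf1, Spdl1, Kntc1, Kif18a, Trip13 and Spag5. They include Mis18a, Oip5 and Hjurp, which serve the loading of CENP-A, and Kntc1, the partner of Zwilch and Zw10. Kif18a, a kinesin that dampens chromosome movement and whose loss is known to deplete germ cells in mice, was at 4.31, 3.26 and 2.88 log2 CPM in the cKO libraries, against 5.59, 5.76 and 5.65 log2 CPM in the WT libraries (log2 fold change -1.36, SE 0.17, adjusted p = 0.014). The higher one was Cenpb, which binds a centromeric repeat. It was at 7.38, 7.67 and 7.61 in the cKO libraries, against 6.81, 6.76 and 6.87 in the WT libraries, with all cKO libraries above WT (log2 fold change 0.57, SE 0.09, adjusted p = 0.016).

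The 17 genes of the anaphase-promoting complex and its ubiquitin-conjugating enzymes showed smaller differences. Of these 2 were lower (Anapc4 and Ube2s) and 0 higher, a count near the 9.24% called lower among all genes tested. The median log2 fold change was -0.17, with median differences of -0.16, -0.17 and -0.17 in cKO 1, cKO 2 and cKO 3. Ube2s, the enzyme that lengthens ubiquitin chains, was at 6.87, 7.34 and 7.12 log2 CPM in the cKO libraries, against 7.57, 7.48 and 7.53 log2 CPM in the WT libraries (log2 fold change -0.65, SE 0.12, adjusted p = 0.0194), with cKO 1 furthest from WT. In 7 of the 17 all cKO libraries lay below all WT libraries, which was so for 27.1% of all genes tested. In 1 they lay above, and in 9 the groups overlapped.

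General genes of dividing cells and markers of the cells of the testis moved as well. Of 7 proliferation genes 2 were lower (Top2a and Pcna) and 6 without the batch term, against 9.24% and 16.7% of all genes tested. In all 7 the cKO libraries lay below the WT libraries, which was so for 27.1% of all genes tested. Their median log2 fold change was -0.61, with median differences of -0.61, -1.09 and -1.40. Among markers of preleptotene to zygotene spermatocytes 10 of 10 were lower, and the summed level of the list was 324, 144.7 and 63.6 CPM in the cKO libraries, against 1511, 2023 and 1605 CPM in the WT libraries. Markers of differentiating spermatogonia were lower in 4 of 8 genes, and in 7 without the batch term. In all 8 the cKO libraries lay below the WT libraries. Their summed level was 275.3 to 462.4 CPM in cKO and 864 to 912.2 CPM in WT. Markers of undifferentiated spermatogonia were lower in 0 and higher in 1 of 10 genes (Etv5), with 410.9 to 618.9 CPM in cKO and 433.4 to 458.2 CPM in WT. This list went both ways. All cKO libraries lay below all WT libraries in 2 genes (Lin28a and Sall4) and above them in 3 (Gfra1, Etv5 and Ret), and 5 overlapped.

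Sertoli cell markers were higher in 8 of 10 genes, against 6.91% of all genes tested. Their summed level was 7405, 12700 and 13790 CPM in the cKO libraries, against 5476, 4920 and 5637 CPM in the WT libraries. Leydig cell markers were higher in 1 of 5 genes (520.9 to 787.4 CPM in cKO, 348.6 to 716.2 CPM in WT), peritubular and interstitial markers in 1 of 5 (3314 to 5004 CPM in cKO, 1684 to 2627 CPM in WT; 1263 to 1840 and 1266 to 1479 CPM without Col1a1, which did not pass) and macrophage markers in 0 of 4 (67.5 to 136.3 CPM in cKO, 55.5 to 63.5 CPM in WT), and none of these lists had a gene called lower. No marker was at 0 in a group. The summed level of the 44 members was 1683, 1219 and 985.6 CPM in the cKO libraries, against 2518, 2634 and 2487 CPM in the WT libraries. Over the cKO mice it fell in the same order as the spermatocyte and proliferation sums, while the Sertoli and macrophage sums rose. The sums of differentiating (454.1, 462.4 and 275.3 CPM) and undifferentiated spermatogonia markers (410.9, 618.9 and 469.4 CPM) followed neither order. Nor did the Leydig and peritubular sums. An order of 3 mice does not tell what set it. The part of cell makeup in the members' result was not tested.

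**Figure D5:**
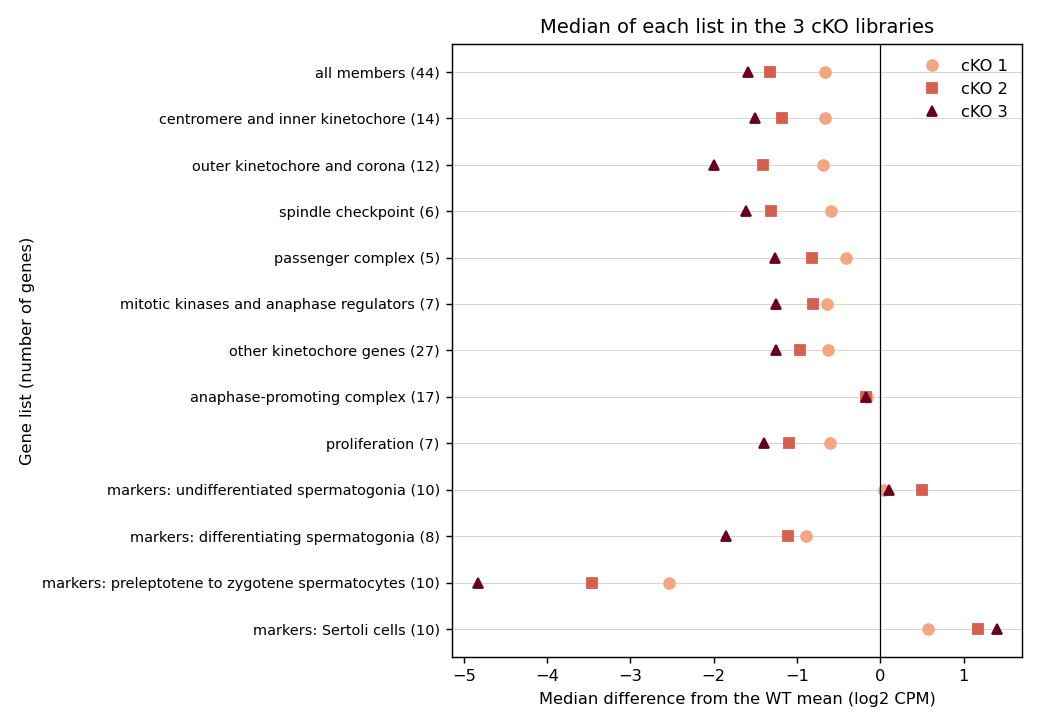
Median difference from the WT mean in log2 CPM (horizontal) for each gene list (rows, number of genes in brackets) in cKO 1, cKO 2 and cKO 3. The members' medians of -0.66, -1.32 and -1.58 lie between those of the anaphase-promoting complex, near -0.17 in each library, and those of the spermatocyte markers, the Sertoli markers lie above 0, and the undifferentiated spermatogonia lie at or above 0.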

How the data were processed

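Poly(A) RNA of whole testis was sequenced from 3 cKO and 3 WT mice. Libraries were stranded. The authors ran bcl2fastq 2.20 and then Salmon 1.2.0, whose index was built from NCBI transcripts with the GRCm39 genome as decoy and which corrected for sequence and GC bias, and they used tximport for gene totals. The deposited expected counts are these estimated counts per gene, in which multimapped reads are divided between genes. The deposited log2 values are log2 CPM of the 16911 kept genes, which the authors made with TMM normalization. Versions listed in the submitters' processing notes are edgeR 3.32.1, limma 3.46.0 and R 4.0.4. The log2 values could be rebuilt from the counts (prior count 2), so no batch correction is in them.

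Rounded counts went into edgeR 4.0.16 (R 4.3.3), whose quasi-likelihood test was used with TMM factors (0.933 to 1.03), a model of batch and genotype, and genes of at least 0.5 CPM in at least 3 libraries, with Benjamini-Hochberg adjustment over all 16632 and a threshold of 0.05. The study's own test was limma-trend with the same terms, run here with limma 3.58.1 as an alternative beside DESeq2 1.42.0. Other alternatives were no batch term, batch 2 alone, a replicate block, other normalizations, no filter, each library left out, and a GC offset. Nothing says that mice share a litter. With the batch term, cKO 1 is the only cKO library of batch 2. The p values of that model rest on the spread among the WT mice and between cKO 2 and cKO 3. They do not measure how cKO mice vary within batch 2, and cKO 1 is assumed to vary like the others. Library totals were at least 30028685 counts; for members of few counts, such as Aurkc, counting error also limits precision. The tests were checked on simulated counts.

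GC content, positions and strands come from GENCODE vM39 (GRCm39), promoters from RefSeq (GRCm38.p6). Promoter motifs were searched in Python 3.11.15 with pandas 2.3.3 and numpy 2.4.6, and figures drawn with matplotlib 3.10.9. The members may all be named, with values per library for those that passed, those on different sides of WT, and others of each group. Other genes are named where they passed or define their list. One gene of these lists counts towards its list but is not reported here by itself. The members and all lists were chosen with earlier results of these data known.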

Additional observations from a re-analysis of the deposited data

How the results depend on the processing

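The count of members lower in cKO was 25 with the batch term. Deviations of same-numbered mice from their group means had correlations of -0.0973, -0.0626 and 0.0077 over 16632 genes. With so few mice per group, these values cannot show whether the numbers pair mice. A replicate block gave 10 members lower with the batch term, 9 of them among the 25, against 3.48% of all genes. The median log2 fold change of -0.66 was -1.11 with no batch term, -1.17 with a replicate block and no batch term, and -0.98 with the GC offset and no batch term. With 1 library left out, the count ran from 0 to 40 and the median from -1.47 to -0.65, and 0 members were higher. The members not called and near 0 changed sign: with no batch term Cenpt was at 0.16, Bub3 at -0.13 and Mad1l1 at 0.11, and with a replicate block and no batch term Cenpt was at 0.14, Bub3 at -0.13 and Mad1l1 at 0.10, while Cenpm was at 0.03 with a replicate block. With 1 library left out, Cenpm ran from -0.24 to 0.08, Cenpt from -0.14 to 0.27, Bub3 from -0.24 to 0.08 and Mad1l1 from -0.05 to 0.15. The causes of these shifts were not tested, except that a fit without the batch term includes cKO 2 and cKO 3 in the contrast. Batch 1 holds no WT library, so without WT libraries of that batch, mouse, batch and genotype cannot be told apart in cKO 2 and cKO 3. With batch 2 alone, cKO 1 is a single mouse assumed to vary like WT. Leaving out cKO 1 could be fitted only without the batch term, where it gave 40 members lower, in a fit that called 31.7% of all genes lower.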
